A study of Drosophila melanogaster with 3 samples.

Results

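Cuticle protein (Cpr), Tweedle (Twdl) and Osiris (Osi) genes were described by where CoRest peaks lay around them in Drosophila melanogaster embryos. The members were the protein-coding genes of the Ensembl annotation whose symbols begin with Cpr, Twdl or Osi followed by a digit or a capital letter. There were 118 of them among 13945 protein-coding genes: 70 Cpr, 23 Twdl and 25 Osi genes. This leaves out Twdlalpha and Twdlbeta, whose names go on in lower case, the pseudogene TwdlU, and the unrelated genes named Cpr and osi.

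The insect cuticle is made of chitin fibres and proteins that the epidermis secretes at its outer face, first for the hatching larva late in embryogenesis and again at each moult. Cpr proteins carry the Rebers and Riddiford consensus, a chitin-binding domain, and are named after the cytological band of their gene. Tweedle proteins are structural cuticle proteins, and mutant TwdlD shortens and widens the body. Osiris genes encode insect proteins with a signal peptide and a predicted membrane segment, and most of them lie side by side at the Triplo-lethal locus, which is harmful in both reduced and increased dose. CoRest is the scaffold of a corepressor complex that removes methyl and acetyl groups from histones.

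The measurement was chromatin immunoprecipitation followed by sequencing (ChIP-seq), with an antibody against GFP, of whole embryos of both sexes collected from 0 to 24 h. All flies came from 1 transgenic line that stably expresses CoRest with GFP at its C-terminus. The 3 biological replicates formed 1 group, so no condition was compared and no test between groups exists. In embryos of mixed age and tissue, binding in few cells and weak binding in many cells cannot be told apart. Each replicate and the pool of their alignments had a list of 30000 peaks, and a further list was thresholded by the authors on reproducibility. It held 8721 peaks, which were exactly the 8721 strongest of the pooled list. A peak is placed by its summit, and its rank is its place by the authors' signal within a list, with 1 as the strongest. A promoter summit lies within 500 bp of a start site. The sequencing depth is unknown, and intervals cover counting error only.

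The sequences around the summits that lay at or next to a member's promoter are shown because they are where the tagged protein was recorded. Each is 101 bases with the summit in the middle, on dm6, read along the strand of the named gene. Capitals mark matches to the TATA box or the initiator core on either strand. The first lay at chr3L:7086853-7086953 on the minus strand, the second at chr3R:6198532-6198632 on the plus strand and the third at chr3L:6140327-6140427 on the minus strand. The fourth lay at chr3L:10889466-10889566 and the fifth at chr3L:10893619-10893719, both on the plus strand.
Cpr65Ea: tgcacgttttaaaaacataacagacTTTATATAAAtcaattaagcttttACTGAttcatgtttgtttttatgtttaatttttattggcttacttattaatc
Osi24: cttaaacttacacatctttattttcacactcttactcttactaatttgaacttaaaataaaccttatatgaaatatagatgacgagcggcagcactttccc
Cpr65Av: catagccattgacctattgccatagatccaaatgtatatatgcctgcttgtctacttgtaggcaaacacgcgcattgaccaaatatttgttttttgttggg
Cpr67Fa1: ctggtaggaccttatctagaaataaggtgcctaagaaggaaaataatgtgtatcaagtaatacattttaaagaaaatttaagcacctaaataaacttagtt
Cpr67Fb: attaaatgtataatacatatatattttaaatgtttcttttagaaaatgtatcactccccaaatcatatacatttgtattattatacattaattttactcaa
Of these windows only that of Cpr65Ea held any of the 6 motifs searched. Their GC contents were 21.8% at Cpr65Ea, 31.7% at Osi24, 39.6% at Cpr65Av, 28.7% at Cpr67Fa1 and 17.8% at Cpr67Fb.

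The second set shows the core promoters, from 45 bases before to 10 bases after the start site, which is counted as 0. Shown are the members with a thresholded promoter summit and, from each family, 1 member that has both a TATA box and an initiator in place. Capitals mark TATAAA lying between -45 and -16 and TCAGT lying between -5 and 7. An initiator in this place was present in 6 of the 118 members (5.08%), against 9.68% of all protein-coding genes.
Cpr65Ea: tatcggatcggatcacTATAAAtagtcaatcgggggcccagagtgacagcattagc
Osi24: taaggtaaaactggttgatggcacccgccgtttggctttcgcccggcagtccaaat
Cpr65Av: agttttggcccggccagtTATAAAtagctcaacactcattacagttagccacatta
Cpr67Fa1: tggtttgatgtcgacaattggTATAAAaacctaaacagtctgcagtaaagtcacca
Cpr72Ec: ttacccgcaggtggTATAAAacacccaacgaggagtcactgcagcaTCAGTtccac
TwdlQ: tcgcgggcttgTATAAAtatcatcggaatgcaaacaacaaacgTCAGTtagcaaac
Osi12: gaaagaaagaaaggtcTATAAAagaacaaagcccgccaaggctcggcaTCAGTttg
They lie, in this order, at chr3L:7086598-7086653 on the minus strand, chr3R:6198766-6198821 on the plus strand, chr3L:6139964-6140019 on the minus strand and chr3L:10889945-10890000 on the plus strand. The last 3 lie at chr3L:16367330-16367385 and chr3R:26693580-26693635 on the minus strand and at chr3R:6278486-6278541 on the plus strand. Of the 4 genes with a promoter summit, Cpr65Ea, Cpr65Av and Cpr67Fa1 had a TATA box in place and Osi24 had none.

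Promoter summits were rare at the members. In the thresholded list, 4 of 118 members had a promoter summit (3.39%; exact 95% interval 0.931 to 8.45%), while 35.4% of all protein-coding genes had one. The 4 were Cpr65Ea, Cpr65Av, Cpr67Fa1 and Osi24, which makes 3 of 70 Cpr genes (4.29%), 1 of 25 Osi genes (4%) and 0 of 23 Twdl genes (exact upper bound 14.8%). The intervals of the 3 families overlap, and no test of a difference between families was run. The intervals take genes as independent, although many members are close neighbours.

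The replicates gave like values when the 8721 strongest peaks of each were used. Replicate 1 had a promoter summit at 1 member (0.847%), namely Cpr65Ea, against 36.2% of all genes. Replicate 2 had 3 members (2.54%), Osi24, Cpr65Ea and Cpr67Fa1, against 36.6%. Replicate 3 had 4 members (3.39%), the same 4 as the thresholded list, against 33.6%. The mean share was 2.26% ± 1.29 (SD, n = 3) for members and 35.5% ± 1.63 (SD, n = 3) for all genes, and the ranges of these shares did not overlap.

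Using more peaks added members, and their share stayed below that of all genes. In the whole pooled list 14 members (11.9%; exact 95% interval 6.64 to 19.1%) had a promoter summit, against 51.8% of all genes. These were 6 Cpr, 4 Twdl and 4 Osi genes. Their best pooled rank was 5795 and their median rank 16572, while the median over the 7229 genes with a promoter summit was 5444. In the whole replicate lists the member share was 10.2% in replicate 1, 17.8% in replicate 2 and 13.6% in replicate 3. Counts by family varied between replicates: Osi genes with a promoter summit numbered 6, 2 and 2 in replicates 1, 2 and 3, and Cpr genes 4, 13 and 10. Twdl genes numbered 2, 6 and 4.

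**Figure D1:**
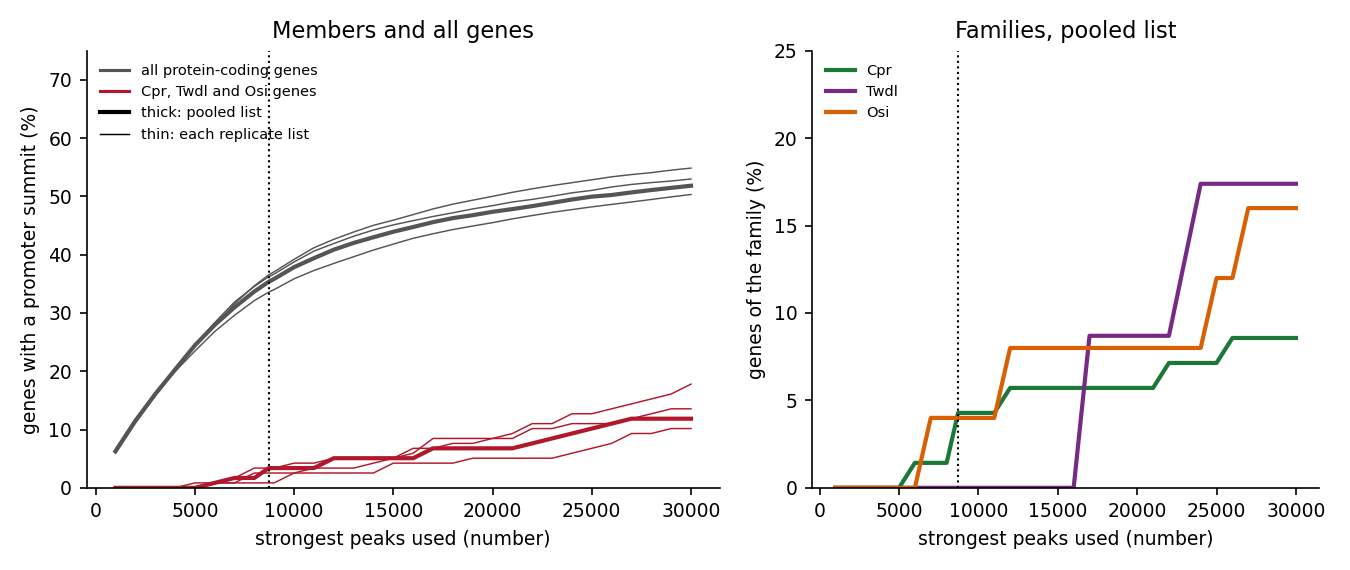
Percent of genes with a promoter summit (y axis) against the number of strongest peaks used (x axis). Left, all protein-coding genes in grey and the 118 members in red, with the pooled list as a thick line and each replicate as a thin line; right, the 3 families in the pooled list. The dotted line is at 8721 peaks, where 35.4% of all genes and 3.39% of members have a summit in the pooled list, and no Twdl gene does.

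A promoter summit was present in all 3 whole replicate lists at 6 members (5.08%), against 42.8% of all genes. They were Cpr65Ea, Cpr65Av, Cpr67Fa1, Osi2, TwdlG and TwdlP. At TwdlG these were 3 separate pooled summits, each matched in a different replicate: 14 bp upstream in replicate 1, 124 bp upstream in replicate 2 and 258 bp downstream in replicate 3. A further 22 members had one in 1 or 2 replicates, and 90 members had none in any replicate or in the pool. Some members have near-identical copies. Cpr65Ax1 and Cpr65Ax2 had less than 80% unique sequence around the start site (23.6% and 27.9% of 31-base stretches). TwdlJ, TwdlK and TwdlL, which lie in a tandem group, had 83.1 to 84.4%. How the authors' alignment treated repeated sequence is not known, and its part in the counts was not tested.

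Cpr65Ea had the strongest promoter summit of a member, 295 bp upstream of its start site in intergenic sequence (3L 7086681 to 7087124, pooled rank 5795). Its ranks were 5516, 7883 and 6597 in replicates 1, 2 and 3 (6665 ± 1185, SD, n = 3). It was the only member with a summit among the strongest 8721 of every replicate.

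Osi24, the first gene of the Osiris row, had its summit 229 bp upstream (3R 6198360 to 6198803, pooled rank 6305). It ranked 5447 in replicate 2 and 4986 in replicate 3, but replicate 1 had no summit within 100 bp. This was the closest thresholded summit to any member's start site, and 1 of the 3 replicates did not carry it.

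Cpr65Av had a summit 403 bp upstream (3L 6140155 to 6140598, pooled rank 8151; replicates 9392 ± 1317, SD, n = 3). Cpr67Fa1 had its summit 474 bp upstream (3L 10889294 to 10889737, pooled rank 8565; replicates 8403 ± 1358, SD, n = 3). Both stood near the end of the thresholded list, and in single replicates they fell on either side of rank 8721.

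All 4 thresholded promoter summits lay between 229 and 474 bp upstream, and none within 200 bp of a start site. Over all genes 73% of those with a promoter summit had it within 200 bp. Of the 14 in the pooled list 11 lay upstream and 3 downstream, and 2 of the 14 were within 200 bp, at TwdlG (14 bp upstream, rank 16249) and Osi5 (90 bp upstream, rank 24019), both matched in replicate 1 only.

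**Figure D2:**
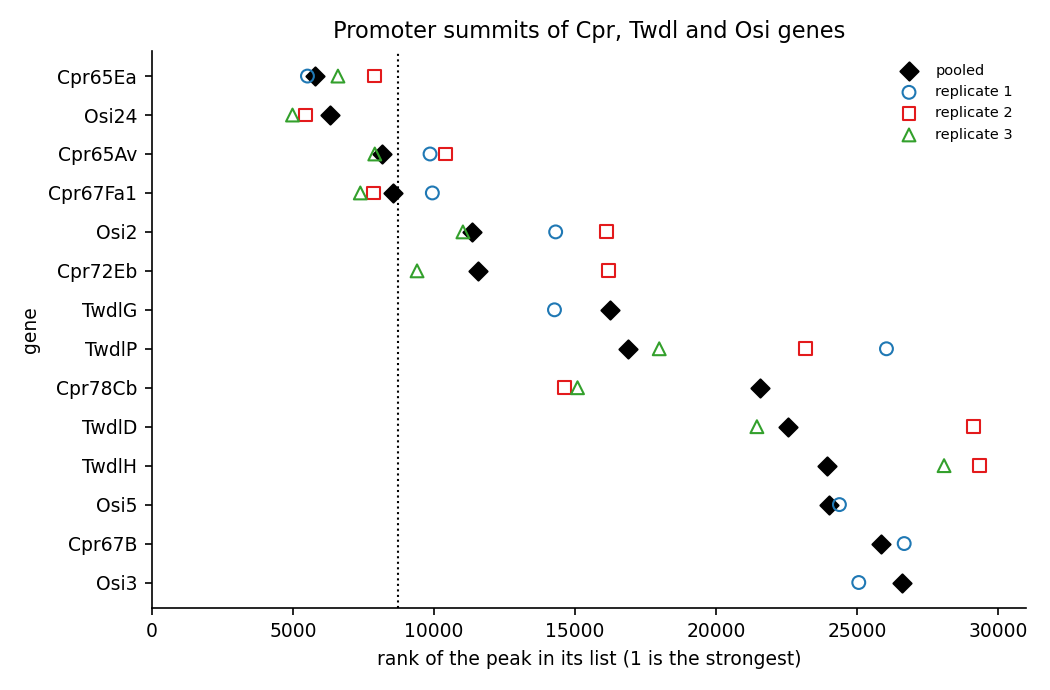
Rank of the promoter peak of each of the 14 members with a promoter summit in the pooled list (x axis, 1 is the strongest), with a mark for the pool and for every replicate whose list has a summit within 100 bp. The dotted line is at rank 8721, and the 4 genes at the top, Cpr65Ea to Cpr67Fa1, lie to its left in the pooled list.

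Below the threshold, the Osiris gene Osi2 had a summit 277 bp upstream of a start site, inside its own intron, at pooled rank 11367 (replicates 13827 ± 2587, SD, n = 3). Cpr72Eb had a summit 454 bp upstream at rank 11582, found in replicates 2 and 3. TwdlP carried a summit in its coding sequence, 374 bp downstream of the start site, at rank 16895 (replicates 22409 ± 4085, SD, n = 3). TwdlD, the Tweedle gene with the body shape mutant, had a summit 405 bp upstream at rank 22566, with ranks 29152 and 21456 in replicates 2 and 3 and none in replicate 1. Cpr78Cb and TwdlH had summits in replicates 2 and 3 only, and Osi5, Cpr67B and Osi3 in replicate 1 only, all at pooled ranks beyond 21000.

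Most members lay far from any thresholded peak. The median distance from a start site to the nearest thresholded summit was 13198 bp over members and 2682 bp over all genes. By family it was 11025 bp for Cpr, 19919 bp for Twdl and 15015 bp for Osi genes. Of the members 70 (59.3%) were over 10 kb away, against 24.6% of all genes. TwdlT on 3R was the farthest at 59148 bp. With the pooled list the member median was 2998 bp, against 417 bp over all genes.

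**Figure D3:**
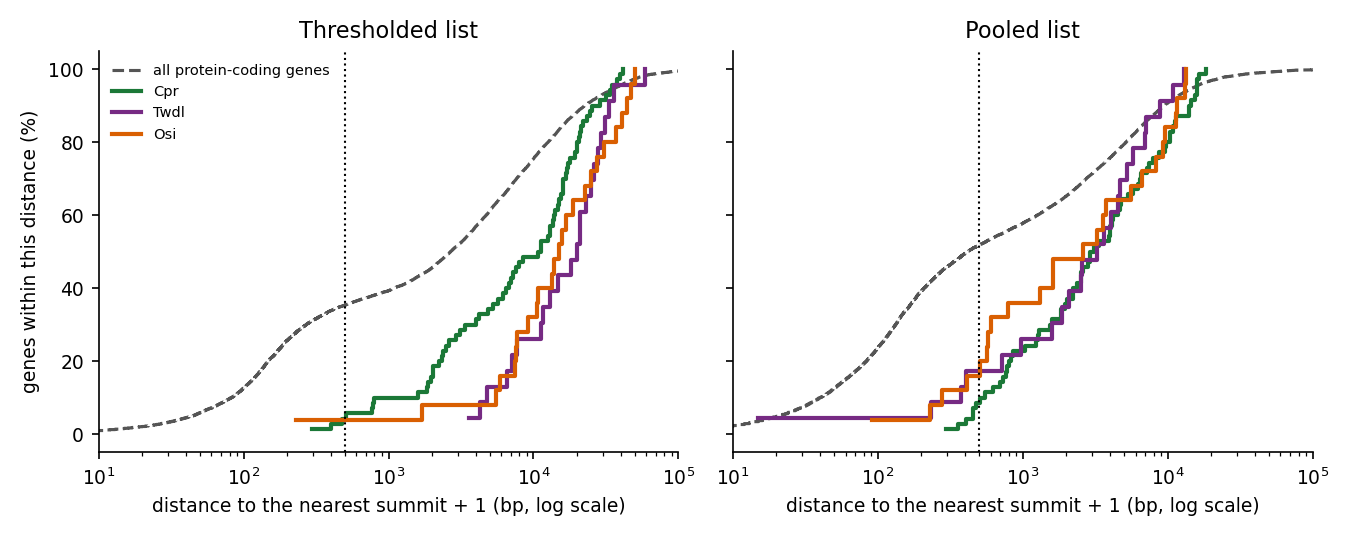
Percent of genes (y axis) whose nearest summit lies within a given distance of a start site (x axis, bp on a log scale with 1 added), for the thresholded list on the left and the pooled list on the right. Coloured lines are the 3 families, the dashed grey line is all protein-coding genes and the dotted line marks 500 bp. The family curves run to the right of the grey curve over most of the range, with medians of 11025 to 19919 bp against 2682 bp in the thresholded list.

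Widening the view to the gene and 2 kb on each side, 18 of 118 members had a thresholded summit, against 52.6% of all genes. They were 15 Cpr, 1 Twdl and 2 Osi genes. This window grows with the gene, and the median length was 1203 bp over members and 2166 bp over all genes. The part of length in the difference was not tested. The members shared 18 distinct summits, of which 13 were found in all 3 replicate lists and 12 were intergenic. Over the whole thresholded list, 7876 to 8093 of the 8721 peaks were matched in both replicates of a pair. The shares of that list found in all 3 replicates or in intergenic sequence were not computed, so these counts are not read as traits of the members. Among start sites of protein-coding genes only, 10 of the 18 summits had that of a member as the nearest and 8 were nearer to a gene of another kind.

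Some of the strongest summits near these genes lay outside the promoter window. Cpr67Fb had a thresholded summit 504 bp upstream, with a pooled rank of 1655 and replicate ranks of 2029, 1652 and 1428 (1703 ± 304, SD, n = 3). It was stronger than each of the 4 promoter summits and lay 4 bp outside the window, in an exon of the antisense RNA gene asRNA:CR45171 (3L 10893571 to 10893797). Cpr67Fa1 of the same group lay just inside at 474 bp.

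The strongest summit near any member was at Cpr76Ba (3L 19516597 to 19516864), at pooled rank 1488 and replicate ranks 1492, 1601 and 1456 (1516 ± 75.5, SD, n = 3). It lay 1590 bp downstream of the start site, past the end of the gene, and no start site of another protein-coding gene was closer. Cpr100A had a summit 1844 bp upstream at rank 3937 (replicates 4582 ± 1579, SD, n = 3). Osi5 had a summit 1702 bp downstream of its start site at rank 6513 (replicates 7886 ± 2920, SD, n = 3). Cpr65Az had a summit 768 bp upstream at rank 6415, which was found in replicate 1 only.

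Other summits close to members belonged by position to neighbours. In Cpr73D a summit of rank 1671 lay in an intron 525 bp from a start site of Ogdh, which encodes a subunit of the oxoglutarate dehydrogenase complex and overlaps Cpr73D. This summit was also 775 bp downstream of a start site of Cpr73D. It ranked 1059 and 1296 in replicates 2 and 3 and had no match in replicate 1. Another of rank 5510 lay 142 bp from an Ogdh start site. The remaining summit, at rank 5123, lay in a Cpr73D intron 1552 bp from that gene's own start site. The summit past Cpr66Cb was 6 bp from the start site of the peroxisome gene Pex2, and that past Cpr56F was 7 bp from CG16868. The summits past Cpr31A lay at 63 and 572 bp from Pen, an importin gene. The summit at CG16868 had no match in replicate 3, and that at 63 bp from Pen none in replicate 2. The summit past TwdlE, the only Tweedle gene in this group, was 507 bp from lectin-28C.

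Most members lie in clusters. Members with at most 10 kb between neighbours, at least 3 together, formed 16 clusters that held 84 members in 328 kb. They contained 8 thresholded summits, 2.44 per 100 kb, where the same chromosome arms held 6.48 per 100 kb. Clusters were cut at the outer ends of their outermost members, so the promoter summits of Osi24 and Cpr67Fa1 lay just outside. With 2 kb added on each side there were 11 summits, 2.80 per 100 kb. With the 8721 strongest peaks of each replicate, density was 2.03 ± 0.465 per 100 kb in clusters and 6.46 ± 0.0309 on the arms (both SD, n = 3). With all peaks of each replicate the densities were closer, 16.6 ± 2.46 and 22.1 ± 0.160 per 100 kb. No thresholded summit lay in 11 of the 16 clusters, and 5 clusters had none in the pooled list. Some clusters are as short as 4.70 kb, and the share of like stretches of the arms without a summit was not computed. Thresholded density was above that of the 3L arm (6.60 per 100 kb) in Cpr65Ea to Cpr65Ec (25.5), Cpr67Fa1 to Cpr67Fb (21.3) and Cpr65Au to Cpr65Az (9.89). In all other clusters it was below that of their arm.

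By family, the 11 Cpr clusters held 4.40 thresholded summits per 100 kb, the 3 Twdl clusters none in 38.5 kb, and the Osi stretches 0.765 per 100 kb. The same arms held 6.38, 6.65 and 6.55. The Osi value leaves out the 11.8 kb between Osi6 and Osi7. With it, the row from Osi24 to Osi20 held 1.40 per 100 kb. The clusters also held 29 protein-coding genes that are not members, among them cuticle genes with older names such as Lcp65Aa and Edg78E. Of these 29, 2 had a thresholded promoter summit (6.90%), CG13297 and goe. The promoter summit of goe lay outside the span of its cluster, TwdlX to TwdlZ.

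Among the Cpr clusters, that of Cpr65Au to Cpr65Az on 3L had the most thresholded summits, 3 in 30.3 kb. Its strongest, at rank 2698, lay 455 bp from a start site of CG13297 and 798 bp downstream of the start site of Cpr65Ay (replicates 2887 ± 506, SD, n = 3). The 3 genes Cpr65Ea to Cpr65Ec, in 7.84 kb, had 2 summits, at Cpr65Ea and, at rank 4057, 2190 bp from Cpr65Eb. In the cluster of Cpr47Ea to Cpr47Eg on 2R the only thresholded summit was at rank 1865. Its nearest start site of a protein-coding gene was that of the troponin C gene TpnC47D, at 662 bp. The clusters of Cpr49Aa to Cpr49Ad, Cpr49Ae to Cpr49Ah, Cpr64Aa to Cpr64Ad, Cpr76Ba to Cpr76Bd and TwdlX to TwdlZ had no summit in the pooled list. The strong summit past the end of Cpr76Ba lies just outside its cluster. The largest Twdl cluster, TwdlM to TwdlD with 12 genes in 21.9 kb, had 4 pooled summits, the strongest at rank 16895.

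The Osiris row held 21 of the 25 Osi genes in 143 kb (3R 6198811 to 6341424), and its start and its end differed. From Osi24 to Osi6, 38.4 kb with 6 genes, there were 17 pooled summits, 44.3 per 100 kb, where the arm held 21.3. The replicates had 15, 8 and 12 summits there (30.4 ± 9.15 per 100 kb, SD, n = 3). Replicate 1 had 39.1 per 100 kb against 21.1 on the arm and replicate 3 had 31.3 against 21.7, but replicate 2 had 20.8 against 21.7 and so was not denser than the arm. The pooled count is above that of every replicate, and 3 of the 17 pooled summits had no match in any of them. From Osi7 to Osi20, 92.4 kb with 15 genes, there were 8 pooled summits, 8.66 per 100 kb, and 14, 6 and 9 in the replicates (10.5 ± 4.37 per 100 kb, SD, n = 3). In each replicate the first stretch was denser than the second.

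Most of these summits were weak. In the first stretch the median pooled rank was 21426, and only the summit downstream of Osi5 was thresholded. The second stretch had no thresholded summit, and none of its pooled summits came before rank 13529. The strongest summit of the row lay in the 11.8 kb between these stretches, 4245 bp after the end of Osi6 and 7568 bp before Osi7 (3R 6241204 to 6241647, pooled rank 4870). It ranked 3077, 8381 and 9682 in replicates 1, 2 and 3. Osi13, Osi14 and Osi15 of the second stretch were, after TwdlT, the members farthest from a thresholded summit.

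**Figure D4:**
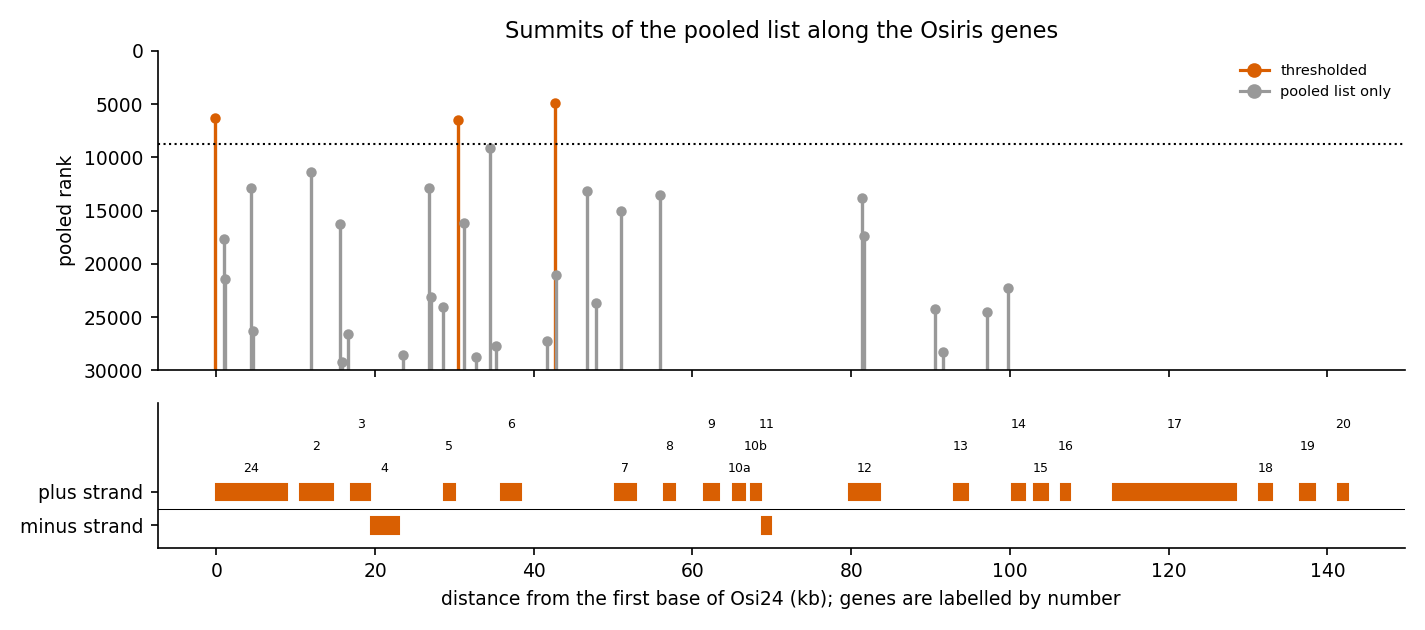
Pooled-list summits along the 21 clustered Osi genes, placed by distance from the first base of Osi24 (x axis, kb), with pooled rank on the upper y axis (strongest at the top, dotted line at 8721) and genes by strand below; only Osi genes are drawn. Thresholded summits are orange; 3 stand at or between Osi24 and Osi7, including the promoter summit 229 bp before Osi24, and none beyond Osi7.

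The members' promoters shared features that the choice by name did not use. At the most upstream start site TATAAA lay within -45 to -16 on the sense strand in 63 of 118 members (53.4%), against 8.75% of all protein-coding genes. This position range was chosen after the data were seen. It was found in 39 Cpr genes (55.7%), 14 Twdl genes (60.9%) and 10 Osi genes (40%). The median position of its first base was -28 (quartiles -32.5 and -26). Counted on either strand anywhere from -250 to 50, TATAAA was in 69.5% of members and 45.9% of all genes.

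Most members, 108 (91.5%), had 1 start site, against 73.5% of all genes. A start site of the opposite strand lay head to head within 500 bp at 1 member, Cpr65Ax2 (0.847%), against 27.4% of all genes. The DREF site TATCGATA, an element of housekeeping promoters, lay from -250 to 50 in 1 member, Cpr49Af (0.847%), against 9.37% of all genes. The sequence GAGAG, which GAGA factor binds, was in 33.9% of members and 29.8% of all genes. The initiator core TCAGT was in 55.1% and 51.6%. The site AACNGGTTT of grainyhead, an epidermal regulator, was in 4 members (3.39%, against 2.04%), and CAAGGTC of ftz-f1, a nuclear receptor that acts in moulting, in 2 (1.69%, against 1.40%). Members had a median GC content of 46.8% in this window (Cpr 45.7%, Twdl 43.9%, Osi 50.2%), and all genes 37.9%.

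**Figure D5:**
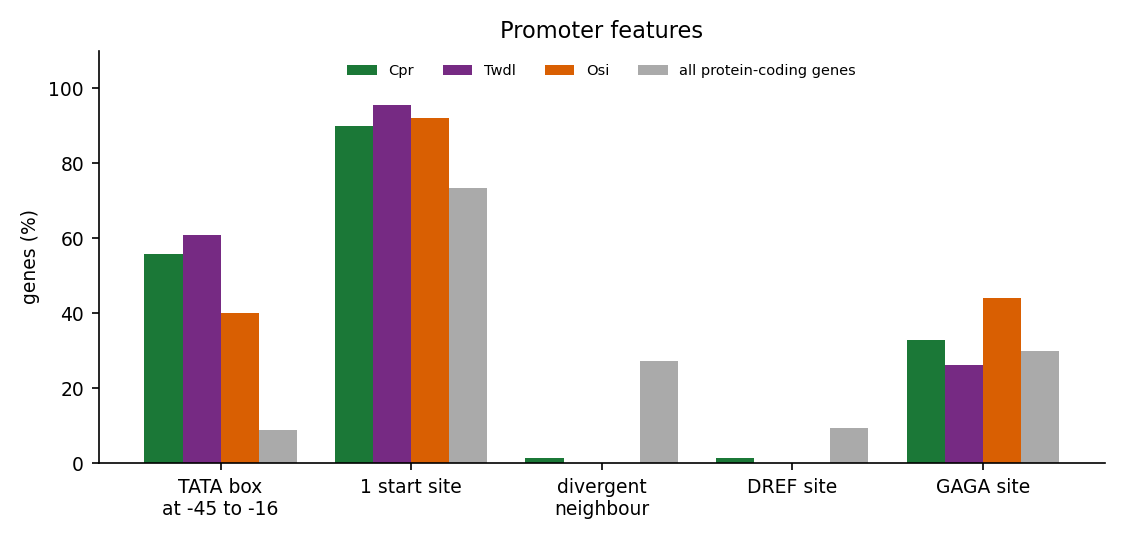
Percent of genes (y axis) in each family and among all protein-coding genes with each promoter feature: a TATA box on the sense strand from -45 to -16, 1 annotated start site, a divergent neighbour within 500 bp, and a DREF or GAGA site from -250 to 50. The TATA box stood at 40 to 60.9% in the families against 8.75% of all genes, and a divergent neighbour at 0 to 1.43% against 27.4%.

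The share with a thresholded promoter summit was also read within genes that have these features, beside genes outside the 3 families. With a TATA box in place, 3 of 63 members (4.76%) and 133 of 1157 other genes (11.5%) had one. Without it, 1 of 55 members (1.82%) and 4793 of 12670 other genes (37.8%) did. Among genes with 1 start site the shares were 3.70% of members and 29.3% of other genes, and among genes with no divergent neighbour 3.42% and 25%. With 1 start site and no divergent neighbour, 4 of 107 members (3.74%) and 1424 of 7507 other genes (19.0%) had one. With all 3 features it was 3 of 61 members (4.92%) and 60 of 876 other genes (6.85%). The member share was the lower one in each of these groups, and the shares were closest where all 3 features were required. Each member share rests on 1 to 4 genes and no interval was computed for it. Small differences, such as those among genes with a TATA box, are therefore not resolved. The part of these features in the low share of members was not tested.

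Other genes of the cuticle were counted by role, with thresholded promoter summits read against the same 35.4% of all genes and pooled ones against 51.8%. Of 28 cuticle protein genes with older names, such as Acp1 and Acp65Aa, 0 had a thresholded promoter summit (exact upper bound 12.3%; strongest peaks of the replicates 2.38% ± 2.06, SD, n = 3), and 5 had a pooled one (17.9%). Of 10 genes for chitin-binding proteins of the peritrophin type, such as Gasp and obst-A, 0 had a thresholded one (exact upper bound 30.8%) and 4 a pooled one (40%). Of 9 tanning and pigment genes only speck, which encodes an arylalkylamine N-acetyltransferase, had a thresholded one (rank 6167), and 3 had a pooled one (33.3%). The dopa decarboxylase gene Ddc had a pooled one at rank 17214 and b had none in either list. Of 11 genes for zona pellucida proteins of the apical matrix, tyn (rank 2576) and qsm (6226) had a thresholded one, and 7 had a pooled one (63.6%). Among the latter was dpy at rank 19208, while dyl had none in either list.

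Genes that make or modify chitin had a thresholded promoter summit in 6 of 19 cases (31.6%; replicates 28.1% ± 3.04, SD, n = 3), a share near the background. They were led by the chitinase gene Cht7 at rank 644, by Gfat2, whose enzyme starts the pathway to the chitin precursor, at 1461, and by rtv, needed for chitin fibre order, at 4253. In the pooled list 10 of the 19 had one (52.6%). The deacetylase gene Cda5 had only a pooled summit, at rank 21490 and in all 3 replicate lists, and Cda4 had none in any list. Of 15 regulators of cuticle genes 8 had a thresholded one (53.3%; exact 95% interval 26.6 to 78.7%; replicates 55.6% ± 3.85, SD, n = 3), an interval that includes 35.4%. In the pooled list 14 of the 15 had one (93.3%), against 51.8% of all genes. The strongest were at Eip75B, an ecdysone-induced nuclear receptor gene, at rank 338, at the tracheal regulator trh at 807 and at the bZIP factor gene vri at 1079. The ecdysone-induced genes Eip74EF and br had pooled summits only, Eip74EF at rank 11054 in all 3 replicate lists and br at rank 26368 in 1 of them.

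Beside the members, TwdlU, a Tweedle pseudogene on 3R that the choice leaves out, had a thresholded promoter summit that was present in all 3 replicate lists, while Twdlalpha and Twdlbeta had none in any list.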

How the data were processed

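ChIP-seq peak lists of 3 replicates, of their pool and of thresholded peaks were analysed. Per the deposited file listings, coordinates are on dm6, peaks were called against 1 control file common to all lists, and the thresholding was by IDR. Caller, aligner and IDR limit: not given in the sources used here. The authors' signal value of a peak, as deposited, served only to rank peaks. The −log10 q-value the authors deposited was left unused. Summits are the authors' deposited offsets added to the peak start. Start sites came from Ensembl release 115 (19607 of protein-coding genes) and sequence from the RefSeq copy of Release 6, where 99.8% of annotated start codons read ATG. Summits were matched within 100 bp between lists, and 51.2 to 54.7% of the peaks of a replicate had a match in another. Exact 95% binomial intervals were computed with scipy 1.17.1 in Python 3.11.15. The calculation was tested on simulated data: 2012 of 2012 planted genes were recovered among 13945. The summits were planted within 500 bp of a start site, so this checks the counting only and not the detection of binding. No test between lists of genes was run. Motifs were searched on both strands unless a strand is named.

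Named genes were all members with a thresholded promoter summit, up to 10 more by pooled rank with a promoter summit in the pool and all 3 replicates, those with a summit in the gene or within 2 kb, the strongest summit of each cluster, and up to 3 bound and 2 unbound genes of each other list. The other members given with values, such as TwdlT, TwdlD, Cpr72Eb and Osi13, were chosen after their values were seen. The members and lists were chosen with earlier results of these data known. The symbol AANAT1 was matched through its synonym speck. Alternatives were other windows, gaps, list lengths and overlap rules, and each replicate left out after peak calling.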

Additional observations from a re-analysis of the deposited data

How the results depend on the processing

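The count of 4 members with a thresholded promoter summit stayed at 4 when a summit was given to its nearest start site only. It was also 4 among the 116 members whose start-site windows were at least 80% unique, a setting chosen after seeing the data. It was 0 with a window of 200 bp, 8 with 1000 bp, 0 in the stronger 4360 thresholded peaks and 0 when the peak interval had to cover the start site, while all genes stood at 25.8%, 39.3%, 21.8% and 24.4%. For leaving out a replicate, here and in clusters, only thresholded peaks matched in both other replicates were kept. These were 7876, 8093 and 7964 of the 8721 peaks without replicates 1, 2 and 3. Peaks were not called again, so such counts could not rise. The member count was then 3 to 4, and Osi24 was the gene lost without replicate 2 or replicate 3. The replicate share of 2.26% was 0.565% with 200 bp, 4.80% with 1000 bp, 13.8% with all peaks, 0% with 4360 peaks and 1.69 to 2.97% without a replicate. The 8 thresholded summits in clusters became 3 (1.58 per 100 kb) with a gap of 5 kb, 9 with 20 kb, 5 (2.38 per 100 kb) in clusters of at least 5 members, 11 with 2 kb added on each side and 7 without any 1 of the replicates. Among the other lists, a window of 200 bp left 0 zona pellucida genes, 0 tanning genes and 5 regulators, and 1000 bp gave 1 cuticle gene with an older name and 2 tanning genes. The TATA box count of 63 was 62 among members with 1 start site. No paired analysis was possible because there is 1 group. Read depth is unknown, so a missing peak does not show missing binding.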
